A study of Homo sapiens with 15 samples.

Results

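The comparison concerns 2 cultures of one ovarian cancer line, each given an antibody, and covers every gene on the array. SKOV3ip1 is a human epithelial ovarian cancer line, obtained from SKOV3 cells that had grown in the peritoneal cavity of mice. The arrays labelled with antibody 003 (3 arrays) were set against those labelled with MORAb003 (3 arrays), which together make up 6 of the 15 arrays in the series. Both cultures are described as 7 days with folic acid at a physiological 2 to 10 nM and 24 hours with their antibody. The array titles, however, write MTF and do not name folic acid. The 003 titles put a numeral before MTF, and the MORAb003 titles do not. Whether the 2 cultures received the same folate compound is therefore not clear from the labels. The other 9 arrays came from cells in folate-free medium for 7 days and from cells described as given folic acid at the same level. The cells with folic acid had either no antibody or a control antibody named 004 for 24 hours. MORAb-003 is a humanised antibody against folate receptor alpha, the product of FOLR1. The characteristics of the latter arrays name the antibody as MORAb003 and their titles as MORAb0003. Whether 003 and MORAb003 name the same antibody is not clear from the labels, and the sources used here give no antibody concentration.

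Each condition was grown once, and the RNA of that single culture was divided into 3 aliquots, each hybridised to an Affymetrix U133 Plus 2.0 array. The 3 arrays of a group are therefore technical replicates, and every p-value below compares 2 RNA extracts by the spread between hybridisations. Antibody and culture cannot be told apart in this design, and the same holds for the amount of RNA per cell and the makeup of the culture. All values are log2 expression values as deposited. The brightest of a gene's probe sets stood for the gene, and 14369 genes above the median level of all probe sets in at least 1 extract were tested. A gene was called when its adjusted p in limma was under 0.05 and the extracts differed at least 1.5-fold. Differences are given as 003 minus MORAb003, so that a negative value means a higher level in MORAb003.

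Folate receptor alpha is a GPI-anchored protein that binds folic acid and carries it into the cell, and ovarian carcinomas often express much of it. Receptor tyrosine kinases signal through ERK, which switches on immediate early transcription factors and then a set of feedback inhibitors of its own pathway, such as the Sprouty proteins and the dual-specificity phosphatases. NF-kB, held in the cytoplasm by inhibitor proteins, likewise induces genes for its own inhibitors. HIF, the transcription factor that accumulates at low oxygen, acts on genes of glycolysis, collagen hydroxylation and oxygen sensing.

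FOLR1 was among the most abundant messages in both cultures. Its brightest probe set read 13.74, 13.83 and 13.82 on the 003 arrays and 14.04, 14.11 and 14.03 on the MORAb003 arrays. The groups did not overlap, but the difference of -0.27 ± 0.13 (SE, n = 3 arrays each) was not called (limma adjusted p = 0.10). Without replicate 1 of the 004 extract, which widens the pooled error, the adjusted p was 0.0066, at a difference still under 1.5-fold. A second, dimmer FOLR1 probe set read in the opposite direction, with means of 10.86 in 003 and 9.47 in MORAb003, a difference of 1.39. The direction of FOLR1 between the extracts therefore depended on the probe set. Epithelial markers of ovarian cancer were present in both cultures: 12 of the 13 measured lay above the filter in 003 and 11 in MORAb003, and EPCAM, an epithelial adhesion protein, averaged 13.53 and 13.65. The log2 of their summed level ran from 16.35 to 16.37 in 003 and from 16.57 to 16.61 in MORAb003. Of the leukocyte markers 3 of 6 were above the filter in each extract, none with a mean over 7.33, and of the fibroblast and endothelial markers 8 of 11 were above it in 003 and 7 in MORAb003. The log2 of the summed level of these last ran from 11.06 to 11.22 in 003 and from 10.78 to 10.90 in MORAb003, without overlap. The collagen gene COL1A1 was the brightest of them, at 9.35 and 8.77, and the one that was called (0.59 ± 0.13, higher in 003). Without replicate 1 or 2 of either extract it read under 1.5-fold and was not called, and its other probe sets above the filter gave -1.23 and 0.63. The part of these markers in the differences was not tested.

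The 2 extracts differed in the actin and GAPDH controls for RNA integrity that every array carries. Labelling starts at the 3′ end of a message, so a larger gap between the 3′ and 5′ control probe sets goes with shorter labelled products. For actin this gap was 4.02 ± 0.10 log2 units in 003 and 2.42 ± 0.13 in MORAb003 (SD, n = 3 arrays each), and for GAPDH it was 2.49 ± 0.03 and 1.21 ± 0.14. Neither pair of groups overlapped. In actin the extracts without antibody and with 004 lay between or near these values, at 4.09 without folate, 3.24 with folate and 3.46 with 004 (3.27 to 3.82 over its arrays). The differences also followed the length of genes in the genome. Of the genes with a span under 9.93 kb, the shortest of 4 equal groups, 11.4% were higher in 003 and 6.36% higher in MORAb003, against 4.15% and 28.3% among the longest group, spanning 64.9 kb or more. The median span was 15.6 kb for genes higher in 003, 48.8 kb for genes higher in MORAb003 and 26.1 kb for all genes tested. The part of RNA integrity and gene length in the differences below was not tested. One array, replicate 1 of the 004 extract, stood apart from its fellows, with a lowest correlation of 0.948 against 0.993 or more within each other extract, and it enters the comparison only through the pooled error. Without it 1132 genes were higher in 003 and 2652 in MORAb003, against 1120 and 2532 with it.

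**Figure D1:**
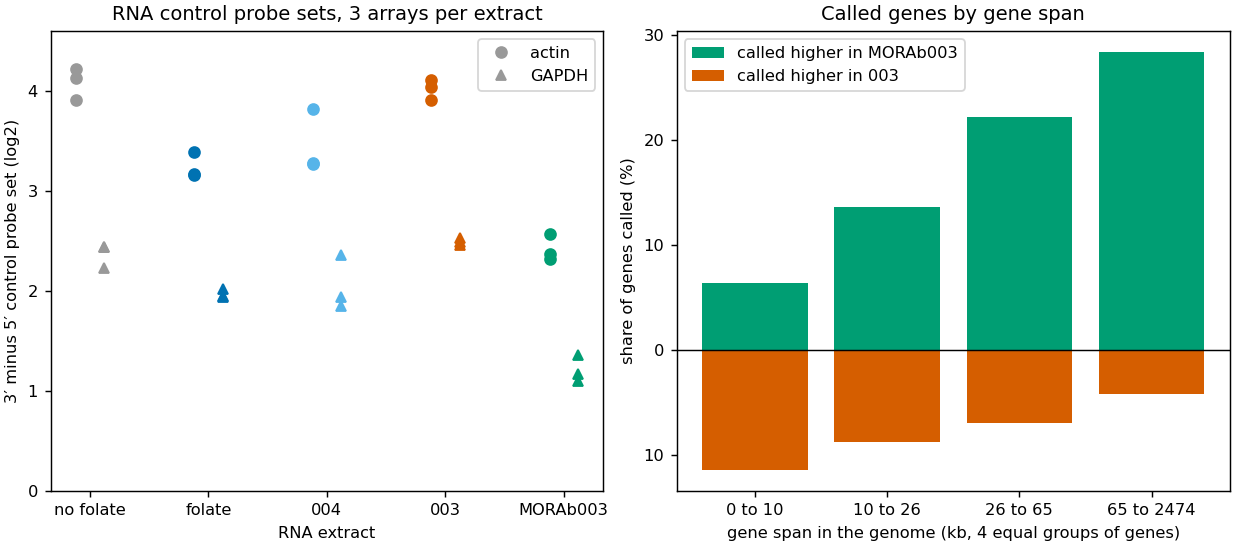
Left, the log2 difference between the 3′ and 5′ control probe sets for actin (circles) and GAPDH (triangles) on each of the 15 arrays, by RNA extract; the MORAb003 arrays lie lowest for both genes and the 003 arrays are near those without folate. Right, the share of genes called higher in MORAb003 (upward bars) and in 003 (downward bars) in 4 equal groups by gene span; the first rises from 6.36% to 28.3% and the second falls from 11.4% to 4.15% from the shortest to the longest group.

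Many more genes were called on the MORAb003 side than on the 003 side. Of the 14369 genes, 1120 (7.79%) were higher in 003 and 2532 (17.6%) were higher in MORAb003, together 25.4%. Quantile normalisation of the arrays made the sides less unequal, with 1641 higher in 003 and 2006 higher in MORAb003. Without the minimum of 1.5-fold the sides were even, at 3229 and 3183 genes. The imbalance was steepest among large differences: 178 genes (1.24%) were at least 2-fold higher in 003 and 1252 (8.71%) at least 2-fold higher in MORAb003. The 3 arrays of 003 lay wholly above those of MORAb003 for 40.0% of genes, called or not, and wholly below for 32.4%. The median over all genes was 0.09, slightly towards 003, with 8264 genes reading higher in 003 and 6105 in MORAb003, called or not. This median depended on brightness. In 4 equal groups of genes it was, from the dimmest to the brightest, 0.18, 0.14, -0.06 and -0.09. With the filter raised to 7.95 it was -0.07. Another 5154 probe sets above the filter carried no single gene symbol, and of these 445 were higher in 003 and 466 in MORAb003.

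The 15 largest differences, all towards MORAb003, were led by 2 Frizzled receptors and otherwise belonged to genes of several kinds, among them secreted proteins, enzymes and intracellular regulators. FZD7, a Frizzled receptor for Wnt proteins, read 7.42, 7.38 and 7.71 on the 003 arrays and 10.96, 11.16 and 10.84 on the MORAb003 arrays. It was 11.2-fold higher in MORAb003 (difference -3.48 ± 0.39, limma adjusted p = 2.7e-05), and a second probe set gave -2.72. FZD6, another Frizzled receptor, read 7.33, 6.85 and 7.78 against 10.59, 10.89 and 10.57, a 10.3-fold difference. SEMA3C, a secreted semaphorin that guides cell migration, differed by -2.96 ± 0.30, though its other probe set gave only -0.66. NRP1, a receptor for class 3 semaphorins and for vascular endothelial growth factor, read 6.97 to 7.31 in 003 and 9.60 to 9.91 in MORAb003, while its second probe set above the filter differed by 0.08. CTH, the enzyme that makes cysteine from cystathionine, differed by -2.74 ± 0.30 and by -2.69 on its other probe set. TNFRSF11B, the secreted decoy receptor osteoprotegerin, differed by -2.57 ± 0.26 and by -2.10 on its other probe set. In all of these the arrays of the extracts were far apart, and the folate extract lay between them, with 8.91 for FZD7.

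The remaining 9 of the 15 largest differences towards MORAb003 fell between -2.80 and -2.41. They were ZPLD1 (-2.80), the epsilon tubulin TUBE1 (-2.68), the transcriptional regulator TCIM (-2.67), the scavenger receptor COLEC12 (-2.66), the Golgi mannosidase MANEA (-2.60), the endoplasmic reticulum co-chaperone DNAJB14 (-2.45), SPRY2 (-2.42), FAM171B (-2.41) and the inward rectifier potassium channel KCNJ16 (-2.41). Adjusted p-values in limma ran from 1.2e-06 for MANEA to 0.00025 for DNAJB14. ZPLD1, TUBE1, MANEA and FAM171B averaged below the filter of 6.60 in 003. In 32 genes at least 2 other probe sets all repeated the difference at 2-fold or more, and 5 of them are given here. CXCR4, the chemokine receptor for CXCL12, read 9.28, 8.92 and 9.59 in 003 and 11.74, 11.67 and 11.47 in MORAb003, and its other probe sets gave -2.24 and -2.04. The relaxin receptor RXFP1 gave -2.10 and, on its others, -2.86 and -2.48. DNAJB9, a co-chaperone of the endoplasmic reticulum, gave -1.84 with -2.09 and -2.60. The mitochondrial enzyme subunit SUCLG2 gave -1.81 with -1.69 and -1.75. DUSP6, a phosphatase that inactivates ERK, gave -2.33 with -2.21 and -2.18.

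**Figure D2:**
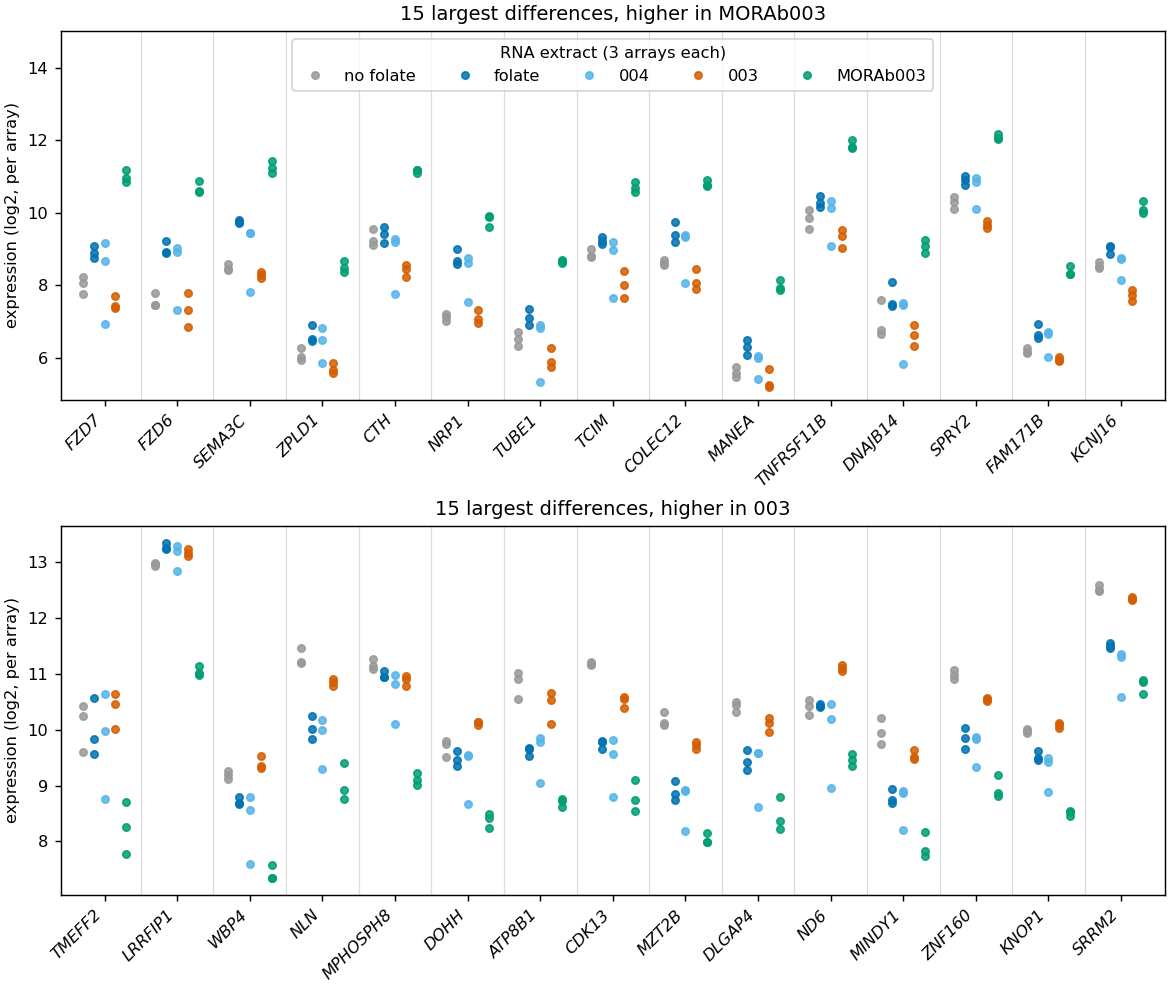
Log2 expression on each of the 15 arrays for the 15 genes with the largest difference towards MORAb003 (top) and the 15 towards 003 (bottom), coloured by RNA extract. The 003 and MORAb003 arrays overlap in none of these genes, and the folate arrays lie mostly between; FZD7 runs from 7.38 to 7.71 in 003 and from 10.84 to 11.16 in MORAb003.

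Wnt pathway genes were often higher in MORAb003. Of 23 tested, 11 (47.8%, against 17.6% of all genes) were higher in MORAb003 and 0 in 003. The median difference was -0.50, against 0.09 over all genes tested. Besides FZD7 and FZD6 the genes higher in MORAb003 included LGR4, the R-spondin receptor, at -1.50 ± 0.25. Another was LRP6, the Wnt co-receptor, at -1.31 ± 0.24. LGR4 read 9.46 to 9.87 in 003 and 11.08 to 11.12 in MORAb003. The 2 other LRP6 probe sets above the filter gave 0.03 and -0.04. AXIN2, a feedback target of beta-catenin, was not called, at 0.40, while CTNNB1, the gene of beta-catenin itself, read 11.28 to 11.71 in 003 and 12.79 to 12.87 in MORAb003, a difference of -1.41. The genes of this list are long, with a median span of 93.7 kb. Of the 9 class 3 semaphorin and receptor genes tested, SEMA3C and NRP1 alone were called, both higher in MORAb003. That share of 22.2% lies near the 17.6% of all genes, and the other 7 lay between -0.16 and 0.40.

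Feedback regulators and targets of ERK signalling were higher in MORAb003 in 12 of 22 cases (54.5%, against 17.6% of all genes). They were higher in 003 in 2, and the median difference was -0.78. SPRY2, a Sprouty inhibitor of receptor tyrosine kinase signalling, read 9.66, 9.58 and 9.76 on the 003 arrays and 12.06, 12.16 and 12.03 on the MORAb003 arrays, a 5.33-fold difference (limma adjusted p = 2.3e-06). DUSP6 read 10.52, 10.48 and 10.85 against 12.95, 12.96 and 12.90, with an adjusted p of 8.8e-06. The spread within each triplet was small beside these distances. SPRY1, a second Sprouty, differed by -1.70 ± 0.14, but its other probe set above the filter gave 0.34. PHLDA1, induced by growth factors, differed by -1.64 ± 0.36, and its 5 other probe sets all had the same sign, from -0.19 to -1.26. On the other side DUSP2, a nuclear phosphatase of ERK, was higher in 003 by 0.74 ± 0.21 and SPRED3, a Sprouty-related inhibitor, by 0.72 ± 0.16. DUSP4 (-0.04) and ERRFI1 (-0.57), a feedback inhibitor of the EGF receptor, were not called. The median span over all 22 tested members, called or not, was 14.6 kb, against 26.1 kb for all genes tested.

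Immediate early transcription factors were divided. Of 25 tested, 9 (36%, against 17.6% of all genes) were higher in MORAb003 and 2 in 003, with a median of -0.21. Quantile normalisation gave 6 and 3 and a median of -0.07. FOS, the partner of JUN in AP-1, read 7.10, 6.88 and 7.18 in 003 and 9.13, 9.20 and 9.38 in MORAb003, a 4.55-fold difference (-2.18 ± 0.17, limma adjusted p = 4.0e-06). MYC, which drives growth and proliferation, read 10.75, 10.84 and 10.81 against 11.95, 12.04 and 12.12, a difference of -1.24. KLF10 (-1.44) and ZFP36L1 (-1.35), an RNA-binding protein that destabilises messages, were the other large ones. SRF, the factor that binds the serum response element, was higher in 003 by 0.63 ± 0.17, and FOSL1 by 0.59 ± 0.11. JUN, at 0.34, was not called. The median span over all 25 tested members, called or not, was 4.92 kb, and the part of length in their differences was not tested. In the EGF receptor family 4 of 10 members (40%) were higher in MORAb003 and 2 (20%, against 7.79% of all genes) in 003, with a median of -0.03. Quantile normalisation left 2 and 1 and a median of 0.14. The ligand EREG differed by -1.24, with 0.14 on its other probe set, and the receptor ERBB3 by -1.22, with -1.26 and 0.33 on its 2 others, while ERBB2, the receptor amplified in SKOV3 cells, averaged 9.18 in 003 and 8.98 in MORAb003 and was not called.

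**Figure D3:**
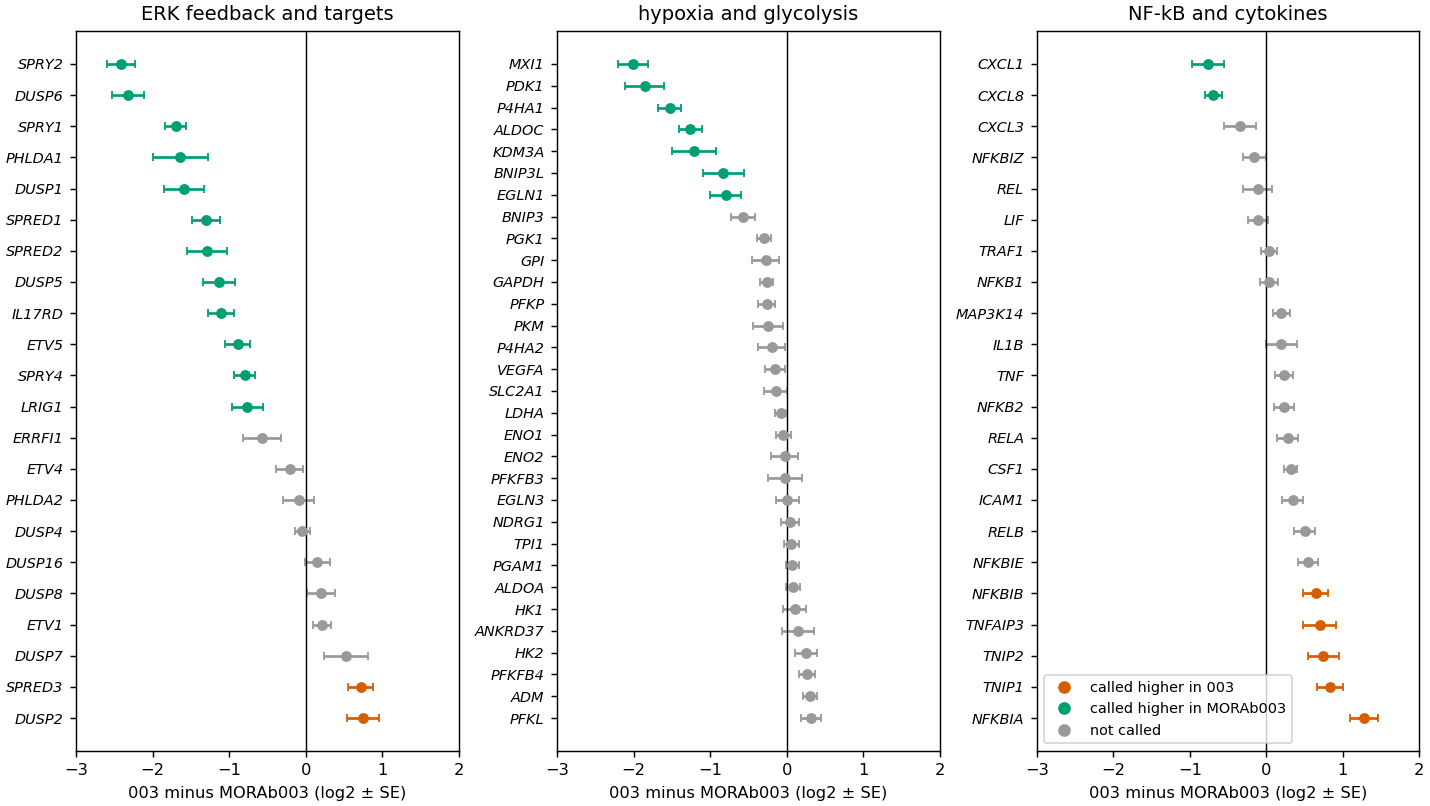
Difference 003 minus MORAb003 (log2, point and SE from limma) for each tested member of the ERK feedback, hypoxia and NF-kB lists; colours mark genes called higher in 003, called higher in MORAb003 or not called. SPRY2 (-2.42) and DUSP6 (-2.33) lead the first list, MXI1 (-2.01) and PDK1 (-1.86) the second, and NFKBIA (1.27) stands highest in the third.

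In the NF-kB list 5 inhibitors and regulators of the pathway were higher in 003, and 2 chemokines were higher in MORAb003. Of 22 members tested, 5 were higher in 003 (22.7%, against 7.79% of all genes) and 2 in MORAb003. NFKBIA encodes the inhibitor that holds NF-kB in the cytoplasm, TNFAIP3 a ubiquitin-editing enzyme that ends the signal, and TNIP1 a binding partner of TNFAIP3. Their promoters are shown because these genes stood together on the 003 side and hold kB sites, the sequence that NF-kB binds. The 250 bases before the RefSeq start site are given 5′ to 3′ on the strand of the gene in GRCh38.p14, with each match to the kB consensus, on either strand, in capitals. NFKBIA lies on the minus strand at chr14:35404750-35404999, TNFAIP3 on the plus strand at chr6:137867009-137867258 and TNIP1 on the minus strand at chr5:151081035-151081284.
NFKBIA: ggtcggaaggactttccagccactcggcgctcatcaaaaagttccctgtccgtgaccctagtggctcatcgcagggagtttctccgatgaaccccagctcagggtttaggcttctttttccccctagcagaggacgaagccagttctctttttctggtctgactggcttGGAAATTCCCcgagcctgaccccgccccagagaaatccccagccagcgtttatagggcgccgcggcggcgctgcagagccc
TNFAIP3: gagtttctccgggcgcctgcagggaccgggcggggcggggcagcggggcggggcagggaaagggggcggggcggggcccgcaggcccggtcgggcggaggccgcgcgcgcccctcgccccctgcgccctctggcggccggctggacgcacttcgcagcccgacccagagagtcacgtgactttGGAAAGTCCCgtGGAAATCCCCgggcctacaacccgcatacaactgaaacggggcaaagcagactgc
TNIP1: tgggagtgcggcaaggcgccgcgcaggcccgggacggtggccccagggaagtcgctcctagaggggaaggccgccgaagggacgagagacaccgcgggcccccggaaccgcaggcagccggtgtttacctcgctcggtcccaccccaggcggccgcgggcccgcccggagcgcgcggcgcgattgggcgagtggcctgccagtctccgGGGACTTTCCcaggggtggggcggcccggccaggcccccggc
The nearest match lay 81 bases before the start in NFKBIA, 55 in TNFAIP3 and 42 in TNIP1. A match was present in 4 of the 5 members higher in 003 (these 3 genes and NFKBIB), in 1 of the 2 higher in MORAb003 (CXCL1), in 5 of 11 that were not called and had a promoter entry, in 15.4% of the 11417 tested genes with an entry and in 9.96% of all 35116 promoters. A match describes these letters and is no evidence of binding in these cells.

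NFKBIA read 12.13, 12.24 and 12.19 on the 003 arrays and 10.88, 10.75 and 11.12 on the MORAb003 arrays. It was 2.42-fold higher in 003 (1.27 ± 0.18, limma adjusted p = 0.00015), and the folate extract, at 11.19, stood close to MORAb003. TNIP1 read 10.72, 10.84 and 10.85 against 10.00, 9.90 and 10.02, a difference of 0.83 ± 0.17. TNFAIP3 read 9.48, 9.48 and 9.64 against 8.85, 8.94 and 8.71, a difference of 0.70 ± 0.21. TNIP2, a relative of TNIP1, and the inhibitor NFKBIB were higher in 003 by 0.75 ± 0.20 and 0.64 ± 0.17. These 2 were the members whose other probe sets also lay at 0.50 or above, whereas the second probe sets of NFKBIA, TNIP1 and TNFAIP3 gave 0.20, -0.07 and 0.12. Of the other inhibitors in the list, NFKBIE (0.54) was not called, and it was called under quantile normalisation (0.71). NFKBIZ, at -0.16, was not called either, and its other probe set gave -0.79. The subunits NFKB1 (0.04), RELA (0.28) and RELB (0.50) were not called. CXCL1 and CXCL8, chemokines that attract neutrophils, were higher in MORAb003, at -0.76 ± 0.21 and -0.69 ± 0.11. CXCL8 read 6.75, 6.80 and 6.86 in 003 and 7.61, 7.56 and 7.31 in MORAb003.

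Of the hypoxia and glycolysis list 7 of 31 members were higher in MORAb003 and 0 in 003. The share of 22.6% on the MORAb003 side lies near the 17.6% of all genes. The median of -0.15 became 0.00 under quantile normalisation, where the same numbers were called among 30 members. The glycolytic enzymes LDHA (-0.07), ENO1 (-0.04) and PGK1 (-0.30), the glucose transporter SLC2A1 (-0.15) and the growth factor VEGFA (-0.15) were not called. The members with the largest differences were MXI1, an antagonist of MYC, PDK1, a kinase that inhibits pyruvate dehydrogenase, P4HA1, a collagen prolyl hydroxylase, and the aldolase ALDOC. The first 3 are shown with the letters TACGTG, or CACGTA on the other strand, in capitals, since this core of the HIF binding site occurred in 5 of the 6 called members with a promoter entry. MXI1 lies on the plus strand at chr10:110209981-110210230, PDK1 on the plus strand at chr2:172555840-172556089 and P4HA1 on the minus strand at chr10:73096867-73097116, each given as the 250 bases before the RefSeq start in GRCh38.p14, 5′ to 3′ on the strand of the gene.
MXI1: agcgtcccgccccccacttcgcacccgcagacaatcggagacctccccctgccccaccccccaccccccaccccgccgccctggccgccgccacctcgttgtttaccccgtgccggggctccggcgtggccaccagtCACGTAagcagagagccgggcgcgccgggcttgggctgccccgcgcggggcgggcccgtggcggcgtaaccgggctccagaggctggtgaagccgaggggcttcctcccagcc
PDK1: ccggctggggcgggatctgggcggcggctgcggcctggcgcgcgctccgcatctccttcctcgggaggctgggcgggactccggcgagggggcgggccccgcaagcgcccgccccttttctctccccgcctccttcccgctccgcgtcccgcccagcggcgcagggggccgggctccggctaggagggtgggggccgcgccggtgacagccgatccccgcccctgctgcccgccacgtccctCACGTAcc
P4HA1: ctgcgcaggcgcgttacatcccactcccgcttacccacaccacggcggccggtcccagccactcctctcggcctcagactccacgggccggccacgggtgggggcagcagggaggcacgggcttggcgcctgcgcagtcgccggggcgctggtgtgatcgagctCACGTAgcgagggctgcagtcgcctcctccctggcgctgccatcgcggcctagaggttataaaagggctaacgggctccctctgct
The match lay 113 bases before the start in MXI1, 8 in PDK1 and 86 in P4HA1. Among members that were not called 4 of 22 held it, as did 3.50% of the tested genes and 2.76% of all promoters. The 2 motifs were chosen with the results known, and their counts are descriptions.

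MXI1 read 7.19, 7.34 and 7.43 on the 003 arrays and 9.26, 9.61 and 9.11 on the MORAb003 arrays, a difference of -2.01 ± 0.20 (limma adjusted p = 1.4e-05). PDK1 read 6.56, 6.67 and 7.09 against 8.70, 8.63 and 8.56, but its second probe set differed by -0.05. P4HA1 read 11.15, 11.19 and 11.30 against 12.80, 12.86 and 12.58, a difference of -1.53 ± 0.15. No array of one extract reached into the range of the other for these genes. ALDOC differed by -1.26 ± 0.16, and EGLN1, the oxygen sensor that marks HIF for destruction, by -0.80 ± 0.20, with -0.70 on its other probe set.

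In the lists of extracellular matrix, TGF-beta and YAP genes about as many members were called higher in MORAb003 as were not called, and at most 1 was higher in 003. Of 25 genes of mesenchymal transition and matrix 11 (44%, against 17.6% of all genes) were higher in MORAb003 and 0 in 003, with a median of -0.41. LAMC1, the laminin gamma 1 chain of basement membranes, read 11.82, 11.76 and 11.84 in 003 and 13.37, 13.58 and 13.46 in MORAb003, a difference of -1.66 ± 0.14 (limma adjusted p = 4.5e-06). LAMB1 (-1.53) and the basement membrane collagen COL4A1 (-1.43) had second probe sets of the same sign, at -1.74 and -1.93. ZEB1, a repressor of epithelial genes, read 6.42 to 6.87 in 003 and 8.24 to 8.66 in MORAb003, but its second probe set gave 0.12. Of 21 TGF-beta and BMP genes 10 (47.6%) were higher in MORAb003 and 0 in 003. The receptors TGFBR2 (-1.45 ± 0.14), TGFBR1 (-1.43 ± 0.30) and BMPR2 (-1.53 ± 0.21) and the SMAD repressor SKIL (-1.58 ± 0.30) led this list, and the other probe sets of TGFBR2 and BMPR2 lay between -0.24 and 0.06. Of 18 YAP and TEAD targets 9 (50%) were higher in MORAb003 and 1 in 003, with a median of -0.60, and quantile normalisation gave 6 and 1. YAP1, the coactivator itself, read 9.94, 9.80 and 10.31 in 003 and 11.38, 11.56 and 11.55 in MORAb003. The target ANKRD1 differed by -1.09 and tissue factor, F3, by -1.06. The median span was 72.4 kb in the matrix list, 48.0 kb in the TGF-beta list and 71.2 kb in the YAP list.

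Epithelial junction genes were called about as often as genes in general. Of 26 tested, 6 were higher in MORAb003 and 2 in 003, shares of 23.1% and 7.69% that lie near the 17.6% and 7.79% of all genes. CLDN1, a tight junction claudin, read 10.79, 10.78 and 10.82 in 003 and 12.47, 12.61 and 12.42 in MORAb003, and its second probe set gave -1.75 beside -1.70. DSG2, a desmosomal cadherin, differed by -1.05. PKP3, a plaque protein of the same junctions, was higher in 003, reading 10.22, 10.19 and 10.14 against 8.67, 8.74 and 8.93.

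Lipid synthesis genes were often higher in MORAb003. Of 20 genes of cholesterol synthesis and uptake, 9 (45%, against 17.6% of all genes) were higher in MORAb003 and 1 in 003. Of 12 genes of fatty acid synthesis and desaturation, 7 (58.3%) were higher in MORAb003 and 0 in 003. The medians of the 2 lists were -0.35 and -0.78. STARD4, a cholesterol carrier, read 7.96, 7.84 and 7.95 in 003 and 10.02, 10.16 and 9.91 in MORAb003 (-2.11 ± 0.20, limma adjusted p = 1.1e-05). MSMO1 and SC5D, enzymes of the late steps of cholesterol synthesis, differed by -1.62 and -1.43. INSIG1, the sterol-dependent brake on the pathway, differed by -1.10, and its 2 other probe sets gave -2.11 and -2.35. The desaturases SCD5 and SCD differed by -2.14 and -1.69, although the 3 other SCD probe sets lay between -0.70 and -0.10. PMVK, a kinase of the mevalonate pathway, was the one member higher in 003, by 0.85 ± 0.14. Lysosomal genes were higher in MORAb003 in 8 of 31 cases (25.8%, against 17.6% of all genes) and in 003 in 0. LIPA, the lysosomal acid lipase, differed by -1.52, NPC1, which exports cholesterol from lysosomes, by -1.14, and LAMP2, a membrane protein of lysosomes, by -1.42 with 3 other probe sets between -1.97 and -1.43. The autophagy list gave 9 of 36 (25%, against 17.6% of all genes) higher in MORAb003 and 1 in 003, and quantile normalisation gave 5 and 3. ATG4C (-1.30), WIPI1 (-1.15) and RB1CC1 (-1.12) led it.

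Of 23 chaperones and unfolded protein response genes of the endoplasmic reticulum, 11 (47.8%, against 17.6% of all genes) were higher in MORAb003 and 1 in 003. The median was -0.56. Under quantile normalisation these counts were 6 and 2 and the median -0.42. DNAJB9 led them, reading 9.07, 9.12 and 9.33 in 003 and 11.11, 11.06 and 10.87 in MORAb003. XBP1, the transcription factor of this response, read 9.72, 9.53 and 10.01 against 10.88, 10.84 and 11.02, a difference of -1.16 ± 0.21. SEL1L, part of the machinery that removes misfolded proteins, differed by -1.39, and the oxidase ERO1A by -1.14. The other SEL1L probe set above the filter gave only -0.11, and the 2 others of ERO1A gave -1.37 and -0.82. SDF2L1, a chaperone of the same compartment, was higher in 003 by 0.72 ± 0.13. The ATF4 and amino acid response list had 9 of 34 members (26.5%, against 17.6% of all genes) higher in MORAb003 and 2 in 003. The median of this list, -0.11, became 0.07 under quantile normalisation. CTH led it, followed by the lipoprotein receptor VLDLR (-1.84), the serine synthesis enzyme PSPH (-1.46) and ASNS, asparagine synthetase, which read 9.46, 9.42 and 9.76 in 003 and 10.90, 10.96 and 10.87 in MORAb003. ATF5, a relative of ATF4, was higher in 003 by 1.19 ± 0.15, with 3 other probe sets between 0.49 and 1.68, and the leucine transporter SLC7A5 by 0.82 ± 0.13. SLC7A11, the cystine transporter in the NRF2 list, differed by -1.14. Of the 21 genes of that list 5 (23.8%) were higher in MORAb003 and 2 (9.52%) in 003, not far from the shares of all genes.

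Targets of p53 were higher in MORAb003 in 9 of 22 cases (40.9%, against 17.6% of all genes) and in 003 in 2, or in 4 under quantile normalisation. The parent line SKOV3 is known to lack functional p53. TP53INP1 read 8.09, 7.96 and 8.23 in 003 and 10.04, 10.08 and 9.93 in MORAb003, but its second probe set gave 0.21. FAS, the death receptor, differed by -1.43 ± 0.19 (limma adjusted p = 0.000115), with 3 other probe sets between -2.59 and -1.35. RRM2B, a ribonucleotide reductase subunit, and the cyclin CCNG1 differed by -1.52 and -1.27.

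Cell cycle genes were called mostly on the MORAb003 side, though for G1/S the scaling decided the side. Of 40 genes of G1/S and replication, 10 (25%, against 17.6% of all genes) were higher in MORAb003 and 0 in 003. Under quantile normalisation these counts were 3 and 5. CCNE2, a cyclin of S phase entry, differed by -1.52 and the origin-licensing factor CDC6 by -1.23. Of 40 G2/M genes, 15 (37.5%) were higher in MORAb003 and 4 (10%) in 003, and quantile normalisation gave 15 and 5. MAD2L1, a spindle checkpoint protein, read 10.45, 10.23 and 10.66 in 003 and 11.77, 11.91 and 11.81 in MORAb003. NUF2 (-1.31), ASPM (-1.24) and ECT2 (-1.18), which act at kinetochores, spindle poles and in cytokinesis, followed. The other ECT2 probe set above the filter gave -1.61, but the 2 others of ASPM gave -0.20 and 0.47. The 4 higher in 003 were CDC20 (0.70), an activator of the anaphase-promoting complex, the mitotic transcription factor FOXM1 (0.68), the proliferation marker MKI67 (0.66) and TOP2A (0.61), whose second probe set gave -0.85. CDC20 read 12.52, 12.34 and 12.46 against 11.74, 11.67 and 11.79.

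**Figure D4:**
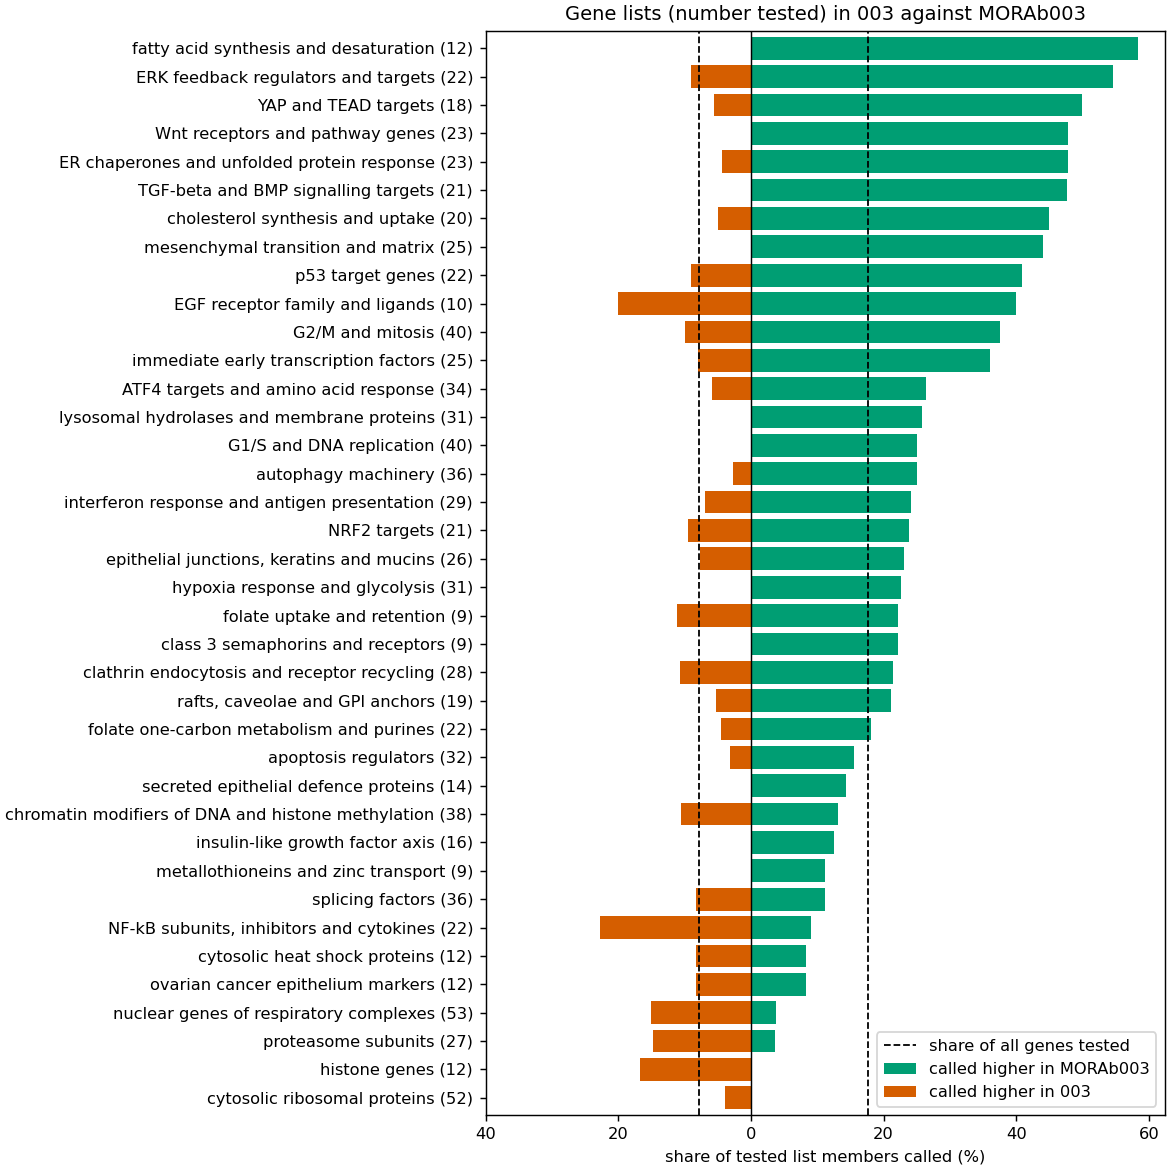
Share of the tested members of each gene list called higher in MORAb003 (right) and in 003 (left), in percent, with the number tested in brackets and the shares of all genes tested (17.6% and 7.79%) as dashed lines. Fatty acid synthesis (58.3%) and ERK feedback (54.5%) extend farthest to the right and NF-kB (22.7%) farthest to the left; 2 marker lists with under 9 tested members are not drawn.

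The largest differences towards 003 were smaller than those towards MORAb003. TMEFF2, a membrane protein with EGF-like and follistatin-like domains, read 10.46, 10.63 and 10.02 on the 003 arrays and 7.77, 8.26 and 8.71 on the MORAb003 arrays, a 4.36-fold difference (2.12 ± 0.41, limma adjusted p = 0.0011). LRRFIP1, a nucleic-acid-binding regulator of transcription, read 13.10 to 13.23 against 10.97 to 11.14. It had 6 other probe sets above the filter, which ran from -1.04 to 1.22. WBP4, a spliceosome protein, read 9.35, 9.32 and 9.54 against 7.35, 7.35 and 7.58, but its other 2 gave -0.24 and -0.58. The same held for NLN, the peptidase neurolysin (1.82, others from -0.50 to 0.10), MPHOSPH8, a subunit of a heterochromatin silencing complex (1.77, others -0.74 and 0.05), and CDK13, a kinase of RNA polymerase II (1.71, others from -1.47 to 0.42). For WBP4, NLN, MPHOSPH8 and CDK13 the difference of 1.5-fold or more towards 003 was seen in 1 probe set each.

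The rest of the 15 were DOHH (1.74), which completes the hypusine modification of a translation factor, the phospholipid flippase ATP8B1 (1.74), the gamma-tubulin partner MZT2B (1.68), the scaffold protein DLGAP4 (1.64), ND6, a complex I subunit encoded in mitochondrial DNA (1.64), the deubiquitinase MINDY1 (1.63), the zinc finger gene ZNF160 (1.58), the nucleolar protein KNOP1 (1.57) and SRRM2, a scaffold of nuclear speckles (1.55). No other probe set above the filter reached 1.5-fold towards 003 in DOHH (0.41 and 0.44), ATP8B1 (-2.04) or MINDY1 (0.11) either. The 4 others of DLGAP4 ran from 0.09 to 0.61, and the 2 of KNOP1 gave -0.08 and 0.86. MZT2B, ND6 and ZNF160 had no other above the filter. ND6 read 11.15, 11.10 and 11.04 in 003 and 9.36, 9.46 and 9.57 in MORAb003. SRRM2 read 12.38, 12.34 and 12.31 against 10.86, 10.63 and 10.89, and its other probe sets gave 0.30 and 0.83. The triplets of all of these genes were far apart, as the rule that chose them required.

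Among gene lists, those with more members higher in 003 than in MORAb003 included the respiratory chain, the proteasome, the histones and NF-kB. Of 53 nuclear genes of the respiratory complexes 8 (15.1%, against 7.79% of all genes) were higher in 003 and 2 in MORAb003. The median was 0.21, and quantile normalisation gave 16 and 2. ATP5F1D, a subunit of ATP synthase, read 12.21, 12.21 and 12.27 in 003 and 11.27, 11.17 and 11.60 in MORAb003 (0.88 ± 0.17), with 1.14 on its second probe set. The complex I subunits NDUFB10 (0.83), NDUFS6 (0.81) and NDUFS7 (0.77) followed, while NDUFB5 of the same complex (-1.11) and SDHD of complex II (-0.96) were higher in MORAb003. Of 27 proteasome subunits 4 (14.8%) were higher in 003 and 1 in MORAb003. PSMA7 read 13.22, 13.23 and 13.14 against 12.16, 12.03 and 12.10 (1.10 ± 0.11, limma adjusted p = 1.7e-05), and its second probe set gave 1.12. PSMB6 (0.81), PSMD2 (0.77) and PSMB7 (0.72) were the other 3, and PSMA1, at -0.63, was the exception. The respiratory genes had a median span of 10.5 kb and the proteasome genes of 17.1 kb.

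Ribosomal protein genes were nearly level between the extracts. Of 52 tested 50 were not called, and the median was 0.02. The 2 called were RPLP2 (1.38 ± 0.28) and RPL27A (0.74 ± 0.23), both higher in 003. These are shares of 3.85% higher in 003 and 0% in MORAb003, against 7.79% and 17.6% of all genes. In 003 and MORAb003 RPLP2 averaged 9.57 and 8.18 and RPL27A 11.37 and 10.62. They were the dimmest of the list, and the next, RPL11, averaged 13.22 and 13.16. The readings of RPLP2 and RPL27A, from single probe sets, are uncertain. Many ribosomal protein genes have near-identical processed copies, and the part of such copies was not tested. Among 36 splicing factors 3 (8.33%) were higher in 003 and 4 (11.1%) in MORAb003, against 7.79% and 17.6% of all genes. Their median of -0.07 became 0.10 under quantile normalisation. SF3A2, a component of the U2 particle, read 11.83, 11.96 and 11.90 in 003 and 10.46, 10.48 and 10.51 in MORAb003, with 1.41 and, on the second probe set, 1.30. U2AF1 (1.20, others 0.28 and 0.50) and SNRNP70 (0.94, other 0.61) were also higher in 003. TRA2A (-1.55), SRSF10 (-1.48) and the kinase CLK1 (-1.32) were higher in MORAb003. The other TRA2A probe sets above the filter had the opposite sign, at 0.20 and 0.55. Those of SRSF10 ran from -1.57 to -0.14, and CLK1 had none. The histone list had 2 of 12 members (16.7%, against 7.79% of all genes) higher in 003 and 0 in MORAb003. The 2 were H2AX (1.13 ± 0.19, others from 0.39 to 0.56), the variant phosphorylated at DNA breaks, and H3-3A (0.88 ± 0.13). Of 29 interferon response genes 7 (24.1%) were higher in MORAb003 and 2 (6.90%) in 003, not far from the 17.6% and 7.79% of all genes, and quantile normalisation gave 4 and 3. IFIT1 (-1.42) and IRF9 (-1.05), part of the factor that switches these genes on, stood on one side, and BST2 (0.89) and the ubiquitin-like ISG15 (0.86) on the other.

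Genes that handle folate were called about as often as genes in general. Of 9 uptake and retention genes 1 (11.1%) was higher in 003 and 2 (22.2%) in MORAb003, against 7.79% and 17.6% of all genes. SLC19A1, the reduced folate carrier, was higher in 003, reading 10.59, 10.50 and 10.58 against 9.41, 9.41 and 9.62 (1.07 ± 0.17, limma adjusted p = 0.00027). Its 3 other probe sets lay between 0.25 and 0.74. GGH, which removes the glutamate tail of folates, read 10.25, 10.21 and 10.38 in 003 and 11.43, 11.36 and 11.38 in MORAb003. SLC25A32, the mitochondrial folate carrier, differed by -1.47 ± 0.34. FPGS, which adds the glutamate tail, differed by 0.42 and was not called. In one-carbon and purine metabolism 4 of 22 genes (18.2%) were higher in MORAb003 and 1 (4.55%) in 003, shares near the 17.6% and 7.79% of all genes. The 4 were MTFMT (-1.47), which formylates the mitochondrial initiator, MAT2B (-1.10), the glycine decarboxylase GLDC (-0.96) and MTHFD2 (-0.80), an enzyme of the mitochondrial folate pathway that read 11.13, 11.04 and 11.11 against 11.85, 11.89 and 11.96. The one in 003 was ALDH1L1, the cytosolic formyltetrahydrofolate dehydrogenase, at 0.61 ± 0.12. Genes of clathrin endocytosis and recycling, the route by which many receptors with bound antibody enter cells, were called in MORAb003 in 6 of 28 cases (21.4%) and in 003 in 3 (10.7%), near the shares of all genes, and quantile normalisation turned the counts to 4 and 5. EEA1, a tether of early endosomes, differed by -1.55 and EPS15 by -1.22, and EPN1 and the light chain CLTB by 0.81 and 0.78.

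Other probe sets of the same gene that lay above the filter repeated the differences more often on the MORAb003 side. For the 1252 genes at least 2-fold higher in MORAb003, 634 had another probe set above the filter. Of these 985 probe sets 759 (77.1%) had the same sign, 531 (53.9%) the same sign and at least 1.5-fold, and 27 at least 1.5-fold in the opposite direction. For the 178 genes at least 2-fold higher in 003, 107 had another, and of 207 probe sets 141 (68.1%) had the same sign, 55 (26.6%) the same sign and at least 1.5-fold, and 25 at least 1.5-fold in the opposite direction. Over all genes tested, whatever the size of the difference, 73.1% of other probe sets had the same sign where 003 was higher and 67.3% where MORAb003 was higher. The same sign and at least 1.5-fold was read in 9.93% where 003 was higher and in 36.2% where MORAb003 was higher. The sides were thus unequal at 1.5-fold among genes in general too. Among the 15 largest differences towards 003, 11 genes had another probe set above the filter; in 0 of these did every one repeat the difference at 1.5-fold, and in 7 none reached 1.5-fold. Among the 15 towards MORAb003, 6 had another, 5 of which repeated it throughout, NRP1 being the exception. All 32 genes in which at least 2 other probe sets repeated a 2-fold difference were higher in MORAb003.

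The clearest contradictions within a gene were ATP8B1, CDK13, LRRFIP1, QNG1 and HOOK1. ATP8B1 differed by 1.74 on its brightest probe set and by -2.04 on the other. QNG1, an enzyme that salvages queuosine, differed by 1.35 and -1.50. HOOK1, an adaptor that links cargo to dynein, differed by -1.17 and 1.65. Averaging a gene's probe sets turned the sign of ATP8B1 (-0.15), QNG1 (-0.07), HOOK1 (0.24), TOP2A (-0.09) and FOLR1 (0.56). In all, 233 genes at least 2-fold different had another probe set above the filter with the opposite sign.

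**Figure D5:**
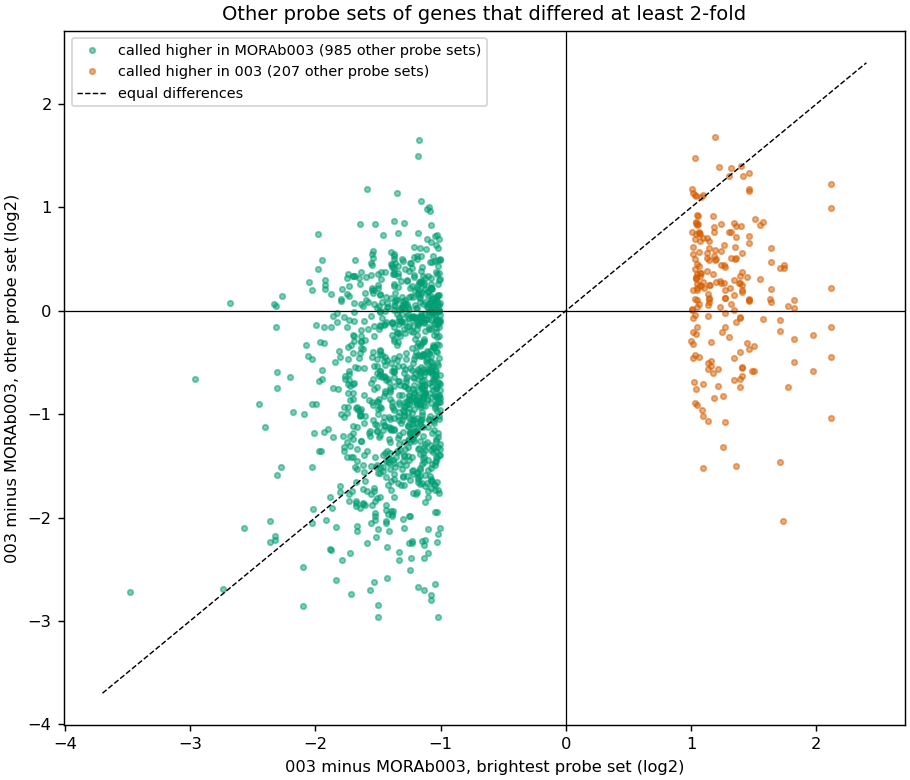
Difference 003 minus MORAb003 (log2) of every other probe set above the filter against that of the brightest probe set, for genes called at 2-fold or more; the dashed line marks equal differences. Points of genes higher in MORAb003 (985) spread from the dashed line to 0, and those of genes higher in 003 (207) lie mostly near 0.

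The extracts with folate alone and with the 004 antibody mostly lay between the 2 compared here, for which a called gene, with its wide gap, leaves more room than genes in general. For genes higher in 003 the folate extract was between them in 1083 of 1120 cases (96.7%), and both the folate and 004 extracts in 979 (87.4%), or in 94.6% without replicate 1 of 004. For genes higher in MORAb003 the folate extract was between in 2467 of 2532 (97.4%), and both in 1749 (69.1%), or in 95.1% without replicate 1 of 004. Over all genes tested both lay between in 40.4%, or in 60.6% without that array. The median size of the difference between 003 and the extract grown without folate, whatever its sign, was 0.16 for genes higher in 003 and 0.16 for genes higher in MORAb003. It was 0.34 and 0.48 between 003 and the folate extract. Between 003 and the 004 extract it was 0.49 and 0.19, or 0.32 and 0.43 without replicate 1 of 004, so that array set how near 003 and 004 stood. MORAb003 differed from the folate-free extract by 0.66 and 0.92. All these medians are over genes chosen for their gap between 003 and MORAb003. On such genes an extract near 003 necessarily lies far from MORAb003, and no such distance was taken over all genes tested. Each antibody extract was also set against the folate extract, in 2 comparisons that share its arrays: 0.431% of genes were higher and 1.59% lower in 003, while 4.77% were higher and 1.81% lower in MORAb003. The actin gaps fell in the same order of extracts, widest without folate and in 003 and narrowest in MORAb003, and their part in this order was not tested.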

How the data were processed

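Total RNA extracted with Trizol was labelled with biotin and hybridised to Affymetrix U133 Plus 2.0 arrays, per the labels' protocols. The authors deposited 1 normalised log2 expression value per probe set and array, from 4.00 to 15.5; their normalisation method is not given in the sources used here, and the number of arrays limits the precision. Of 54675 probe sets, 62 were controls, 41091 had 1 gene symbol in the platform annotation, 1801 several and 11721 none; 41037 were updated to current RefSeq symbols (GRCh38.p14) through Entrez identifiers. Each of 19775 genes was represented by its brightest probe set, averaged over the 15 arrays, and those reaching the median of all probe sets (6.60) in at least 1 extract mean were tested.

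The 5 extract means were fitted in R 4.3.3 by lmFit and eBayes of limma 3.58.1, 3 arrays per extract, and p-values were adjusted by Benjamini-Hochberg over all 14369 genes. On simulated data of that size the fit called 74 of 100 genes made 1.8-fold different and 98 of 100 made 3-fold different, with 8 false calls. The genes given were FOLR1, the 15 called genes with the largest differences each way whose arrays did not overlap, up to 4 called members of each list each way with any uncalled member as a value, and up to 5 genes each whose other probe sets opposed or repeated a 2-fold difference. The comparison, the gene lists, the motifs and the gene spans were chosen with earlier results of these data known. Gene span, from RefSeq, replaced the coding length that had been planned, and promoter sequences came from RefSeq. Of the array's RNA integrity controls, those for actin and GAPDH are given, and another is not reported here.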

Additional observations from a re-analysis of the deposited data

How the results depend on the processing

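The p-values measure hybridisation error within 1 culture each, so no alternative bears on how another culture would read. Of 1120 genes higher in 003 and 2532 higher in MORAb003, leaving out 1 array at a time gave 984 to 1270 and 2068 to 2652. MORAb003 was the side with more calls under every alternative with a test except the one without a fold minimum, which gave 3229 genes higher in 003 and 3183 in MORAb003; with a 2-fold minimum 178 were higher in 003 and 1252 in MORAb003; averaging a gene's probe sets left 686 higher in 003. The share of other probe sets with the same sign, for genes at least 2-fold higher in MORAb003, was 62.3% when those below the filter were counted too, against 77.1%. For genes at least 2-fold higher in 003 it was 70.75%, against 68.1%, so the order of the sides turned. The share with the same sign and at least 1.5-fold was then 30.8% on the MORAb003 side and 18.7% on the 003 side.

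The replicate numbers were also fitted as a replicate block, which gave 1121 and 2525 calls and changed no call among the 171 genes named. Deviations of same-numbered arrays had correlations of -0.01, -0.15 and -0.16, so the numbers do not pair the arrays. A block for the date in the array descriptions gave 1121 and 2533 calls, and the first date alone, with 2 arrays per extract, 1147 and 2046.

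The mean of all probe sets turned FOLR1 (0.56), ATP8B1 (-0.15), QNG1 (-0.071), HOOK1 (0.24), TOP2A (-0.091) and the median of the insulin-like growth factor list (-0.080), and 29 of 162 named genes lost their call under it. Quantile normalisation turned the medians of the ATF4 (0.072) and splicing (0.10) lists and the uncalled genes DUSP4 (0.017), ENO1 (0.025), SLC2A1 (0.066), NFKBIZ (0.014) and VEGFA (0.055). The stricter filter turned the medians of the folate uptake list (-0.27), the ovarian markers (-0.061) and all genes tested (-0.066). The second date alone turned the uncalled DUSP4 (0.025), ENO1 (0.045) and NFKB1 (-0.052), and leaving out 1 array at a time gave DUSP4 between -0.097 and 0.0088 and NFKB1 between -0.017 and 0.092. The causes of these changes were not tested.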
